A study of Homo sapiens with 13 samples.

Results

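The FOXA1 peaks on human chromosome 3 are described here, along the chromosome and in both cell lines of the study. They were selected by position alone, as every row placed on chromosome 3 in either deposited peak list. This gave 1137 of 13252 Hec1A peaks and 3969 of 54855 Ishikawa peaks, together 5106 of 68107. The chromosome itself was picked with its peak values known, so all values below are given as a description, without a test. Coordinates are those of the build hg19.

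FOXA1 is a forkhead transcription factor of the pioneer class, which can bind its sites on DNA that is still wrapped in nucleosomes and loosen the chromatin around them. In hormone-responsive epithelia such as breast and endometrium it prepares sites for steroid receptors, among them the oestrogen receptor. Most of its sites lie far from gene starts, in enhancers, and different cell types use different sets of them.

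Hec1A and Ishikawa are established cell lines from human endometrial adenocarcinoma. FOXA1 was immunoprecipitated with a rabbit antibody in 3 Hec1A and 6 Ishikawa libraries, and 2 input libraries, made without an antibody, are labelled for each line; no treatment is labelled, and nothing says whether libraries come from separate cultures. The ChIP libraries of a line were pooled before peak calling, into 143055568 tags for Hec1A and 343739762 tags for Ishikawa, so each line has 1 list and no replicate error can be given. The Ishikawa list was filtered against its 2 pooled inputs, whereas the recorded Hec1A command names no input. The name of the Hec1A list does refer to inputs, but its header counts leave no peak removed by anything other than the local and clonal filters. Peak lists hold no expression values, so the identity of the lines was not checked by markers, and peaks were given no gene names or sequences, since no annotation or genome of the build hg19 was used here.

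The peaks covered nearly the whole chromosome in both lines. Hec1A peaks spanned 197.3 Mb at 5.76 peaks per Mb, and Ishikawa peaks spanned 197.6 Mb at 20.1 peaks per Mb. On the other 21 autosomes the densities over the same kind of span were 4.52 peaks per Mb in Hec1A and 18.9 peaks per Mb in Ishikawa. The longest interval without a peak lay at 90479466 to 93727132 in Hec1A and at 90218385 to 93668804 in Ishikawa, which is 3.25 Mb and 3.45 Mb long. Between neighbouring peaks the median interval was 95.5 kb in Hec1A and 30.6 kb in Ishikawa.

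Peak numbers were uneven along the chromosome, and the densest places of the lines were mostly different. In 20 windows of 10 Mb, Hec1A had 29 to 94 peaks, lowest at 80 to 90 Mb and highest at 40 to 50 Mb. Ishikawa had 89 to 262 peaks per window, lowest at 0 to 10 Mb and highest at 20 to 30 Mb. Across these windows the peak numbers of the lines had a Spearman rho of -0.02 and a Pearson r of 0.14, given as a description over 20 windows that share the 2 pools.

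In windows of 1 Mb, the densest Hec1A window was 49 to 50 Mb, with 21 Hec1A peaks and 25 Ishikawa peaks. The next Hec1A windows were 9 to 10 Mb and 101 to 102 Mb, with 16 Hec1A peaks each and with 30 and 22 Ishikawa peaks. The densest Ishikawa windows were 29 to 30 Mb with 48 peaks, 23 to 24 Mb with 43 peaks and 50 to 51 Mb with 42 peaks, which held 7, 12 and 13 Hec1A peaks. The window at 50 to 51 Mb was among the 5 densest of both lists. Signal, which is tags in the peak scaled to a pool of 10000000, was low in the densest Hec1A window, with a median of 4.40 and a maximum of 12.2, below the chromosome's Hec1A median of 5.59. In the densest Ishikawa window the median signal was 14.8 and the highest 289.3 tags per 10000000.

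**Figure D1:**
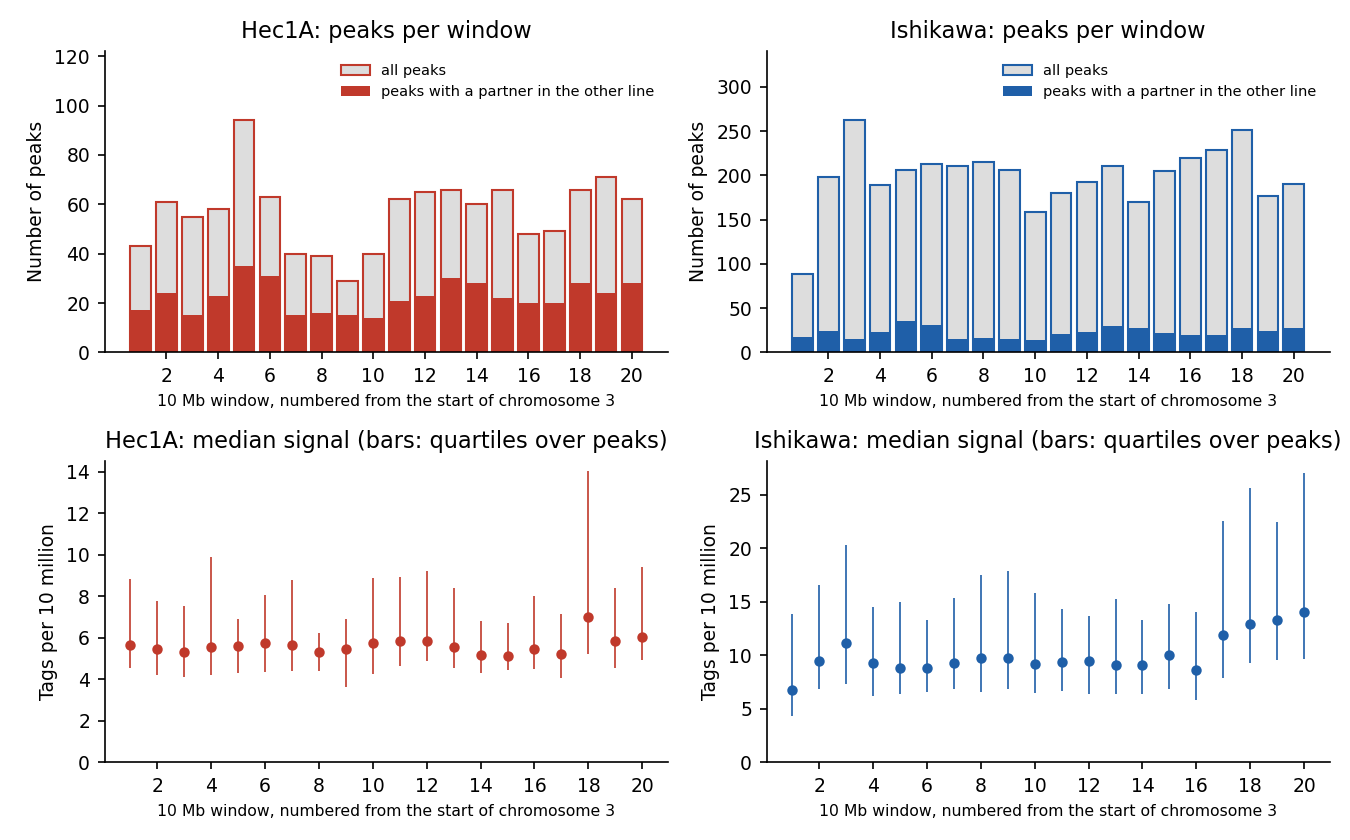
Peaks per 10 Mb window of chromosome 3 (top, filled part: peaks with a partner in the other line) and median signal in tags per 10000000 with quartiles over peaks (bottom), for Hec1A on the left and Ishikawa on the right. Hec1A peak numbers are highest in window 5 (94 peaks) and Ishikawa numbers in window 3 (262 peaks), and the median Ishikawa signal is highest in windows 17 to 20, at 11.9 to 14.0 tags per 10000000.

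A tag is the mapped start of a sequenced fragment. On chromosome 3 the median Hec1A peak had 5.59 tags per 10000000 (quartiles 4.47 and 8.04, highest 167.8), or about 80 tags in the pool. The median Ishikawa peak had 10.1 tags per 10000000 (quartiles 6.87 and 17.4, highest 712.3), or about 347 tags. On the other autosomes the medians were 4.89 tags per 10000000 in Hec1A and 9.80 in Ishikawa. By the authors' fold over the surrounding 10000 bp, called local fold here, the median chromosome 3 peak stood 5.25-fold higher in Hec1A and 6.83-fold higher in Ishikawa, against 5.77-fold in Hec1A and 6.92-fold in Ishikawa on the other autosomes. A local fold of at least 8 was reached by 209 of 1137 Hec1A peaks (18.4%, 95% Wilson interval 16.2% to 20.7%), against 26.0% of the whole Hec1A list. In Ishikawa it was reached by 1538 of 3969 peaks (38.8%, 37.2% to 40.3%), against 40.1% of the whole Ishikawa list. All intervals of shares cover counting error only and treat peaks as independent, which neighbouring peaks are not.

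The strongest Hec1A peak of the chromosome lay at chr3:23136660-23136914, with 167.8 tags per 10000000, a local fold of 151.8 and a focus ratio of 0.992, the share of tags placed as a tight centre would place them. The same site in Ishikawa, at chr3:23136611-23136963, had 126.3 tags per 10000000 and a local fold of 64.5, and stood at place 76 of the chromosome by score. This is a site where the Hec1A signal exceeded the Ishikawa signal. The top Hec1A peak beyond 160 Mb, at chr3:194754234-194754488, had 113.6 tags per 10000000 in Hec1A and 161.1 in Ishikawa. There the local folds were 61.4 in Hec1A and 54.6 in Ishikawa.

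The strongest Ishikawa peak was at chr3:58457070-58457422, with 712.3 tags per 10000000, 10 input tags and a fold over input of 275.8. Its Hec1A partner had 56.5 tags per 10000000, a ratio of Hec1A to Ishikawa signal of 0.0793. The top Ishikawa peak beyond 160 Mb, at chr3:177077690-177078042, had 76.5 tags per 10000000 in Hec1A and 521.0 in Ishikawa. By the mean of the score ranks in both lists this second site came first among all pairs of the chromosome, and the site at 58 Mb came next.

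The following 4 shared sites by mean rank were again strong in both lists, with several times the signal in the Ishikawa pool. At chr3:172468147-172468401 the signal was 73.6 tags per 10000000 in Hec1A and 400.6 in Ishikawa. At chr3:185826898-185827152 it was 52.4 in Hec1A and 415.9 in Ishikawa, and at chr3:47323936-47324190 it was 53.3 in Hec1A and 435.8 in Ishikawa. At chr3:178276413-178276667 it was 39.8 in Hec1A and 430.3 in Ishikawa. Over these 6 sites the ratio of Hec1A to Ishikawa signal lay between 0.0793 and 0.184, and the centres of both lines lay 0 to 13 bp apart. Of the 6 sites, 4 lay beyond 160 Mb, as did 100 of all 449 pairs. Ishikawa tag levels were raised there in general. The Ishikawa peaks of pairs had a median score of 1099 from 160 Mb and 631 below. For the Hec1A peaks of pairs it was 104.5 from 160 Mb and 85 below.

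Peaks counted as partners when their deposited intervals shared at least 1 bp, and each of the 449 pairs on chromosome 3 joined 1 peak of each list. They made up 39.5% of the Hec1A peaks of the chromosome (95% Wilson interval 36.7% to 42.4%), against 52.9% of the whole Hec1A list. They made up 11.3% of the Ishikawa peaks of the chromosome (10.4% to 12.3%), against 12.8% of the whole Ishikawa list. Chromosome 3 had the lowest Hec1A partner share of the 22 autosomes, followed by chromosome 21 with 41.6% and chromosome 5 with 45.5%. In Ishikawa it stood at place 16 of 22 by that share. Along the chromosome the Hec1A partner share per 10 Mb window ranged from 27.3% at 20 to 30 Mb to 51.7% at 80 to 90 Mb. The Ishikawa share ranged from 5.73% at 20 to 30 Mb to 19.1% at 0 to 10 Mb. Partnered centres lay a median of 12 bp apart, and 373 of 449 pairs (83.1%) lay within 50 bp.

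Within pairs the Hec1A signal had a median of 7.34 tags per 10000000 (quartiles 5.03 and 11.7), and the Ishikawa signal a median of 21.6 (quartiles 11.4 and 42.4). The median ratio of Hec1A to Ishikawa signal was 0.355 on chromosome 3 (interval of the median 0.324 to 0.380), against 0.277 over 6342 pairs of the other autosomes (0.270 to 0.283). Hec1A had the higher signal in 50 of 449 pairs on chromosome 3 (11.1%) and in 372 pairs elsewhere (5.87%). Measured over the local region instead, the median ratio of Hec1A to Ishikawa was 0.516 on chromosome 3 (0.454 to 0.538) and 0.530 elsewhere (0.520 to 0.542). The signal ratio therefore stood above that of other autosomes while the ratio of local folds did not. Over the 449 pairs the signals of the lines had a Spearman rho of 0.44, and 0.47 over the pairs of the other autosomes. The pairs of a region share the same 2 pools, so these are descriptions. The part of the unequal peak widths and pool shares in the signal ratios was not tested.

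**Figure D2:**
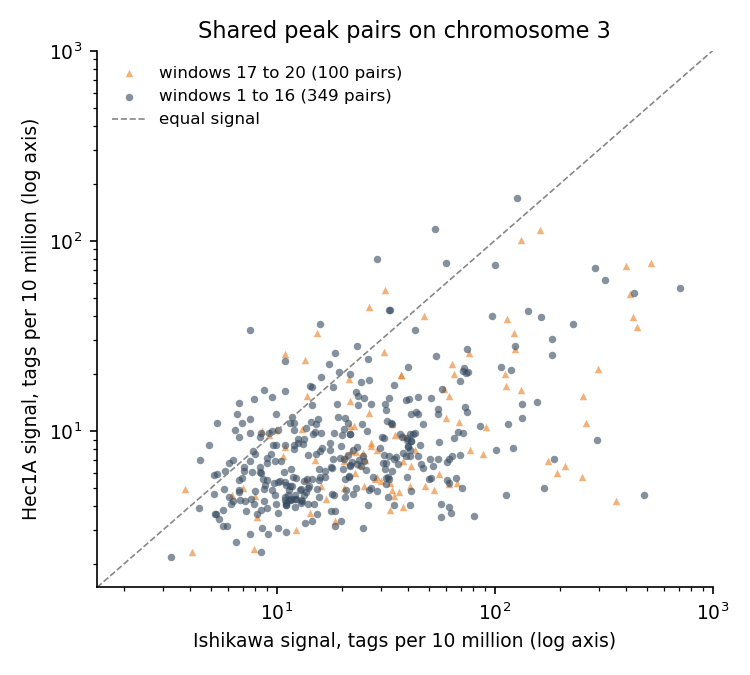
Signal of the 449 shared peak pairs on chromosome 3 in tags per 10000000, Hec1A on the vertical and Ishikawa on the horizontal log axis, with triangles for the 100 pairs in windows 17 to 20 and circles for the 349 other pairs. Most pairs lie under the dashed line of equal signal, and 50 lie above it.

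The strongest Hec1A peaks without an Ishikawa partner did not look alike in their surroundings. The first, at chr3:195442918-195443172, had 97.2 tags per 10000000, a local fold of 24.5 and an Ishikawa peak 4.22 kb away. The second, at chr3:111451979-111452233, had 96.8 tags per 10000000 and a local fold of 41.1, with the nearest Ishikawa peak 16.4 kb away. The peaks at chr3:98696363-98696617 and chr3:95060270-95060524 had 58.4 and 51.1 tags per 10000000 and lay 13.3 kb and 63.7 kb from an Ishikawa peak. The remaining 2 were at chr3:177003929-177004183 and chr3:101898423-101898677, with 35.5 and 25.0 tags per 10000000 and Ishikawa peaks 4.09 kb and 1.22 kb away. Their clonal folds were 0.68 to 0.88, so none of the 6 had tags stacked beyond the expected number of positions. They were picked by score, which counts at most 7 tags per position in this list and so holds down peaks with stacked tags. Local folds were 23.7 to 41.1 for the first 5 and 6.81 for the last.

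The strongest Ishikawa peaks without a Hec1A partner had 267.3 to 381.6 tags per 10000000 and 4 to 14 input tags. The first by score, at chr3:15935457-15935809, had 381.6 tags per 10000000, a fold over input of 211.0 and its nearest Hec1A peak 154.8 kb away. The next were at chr3:142926133-142926485, with 371.6 tags per 10000000, and at chr3:194233571-194233923, with 306.9. At chr3:79786855-79787207 the signal was 299.7 tags per 10000000, and 167.4 kb separated it from the closest Hec1A peak. The last of the 6 were at chr3:192543495-192543847, with 380.7 tags per 10000000, and chr3:189022209-189022561, with 267.3. Of these 6 sites, 3 lay beyond 160 Mb, as did 746 of all 3520 Ishikawa peaks without a partner on the chromosome. The 6 were picked by score, and the median score of such peaks was 387 from 160 Mb and 288 below. A site missing from the Hec1A list may carry tags below its thresholds on score, local fold and clonality, so absence from the list is not absence of binding.

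The authors' clonal fold divides the count of distinct positions that a peak's tags should cover by the count they do cover. Peaks with a value above 1 are called stacked below, and all others spread. The peak caller removed values above 2. On chromosome 3, 575 of 1137 Hec1A peaks were stacked (50.6%, 95% Wilson interval 47.7% to 53.5%), against 28.8% of the whole Hec1A list. It was the highest share of the 22 autosomes, followed by chromosome 5 with 40.2% and chromosome 17 with 37.7%. In Ishikawa, 1045 of 3969 chromosome 3 peaks were stacked (26.3%, 25.0% to 27.7%), against 25.1% of the whole Ishikawa list.

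The high share ran along the entire chromosome in Hec1A. In the 20 windows of 10 Mb it ranged from 38.7% at 190 to 200 Mb to 69.4% at 160 to 170 Mb. Each window therefore exceeded the pooled 26.8% of the other autosomes. Of 239 windows with at least 20 Hec1A peaks on the other autosomes, 32 (13.4%) reached 38.7%.

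The density of stacked Hec1A peaks stood above that of the other autosomes, and the density of spread Hec1A peaks below it. Stacked Hec1A peaks numbered 2.91 per Mb here and 1.21 per Mb elsewhere, a ratio of 2.41. Spread Hec1A peaks numbered 2.85 per Mb here and 3.31 per Mb elsewhere, a ratio of 0.861. Chromosome 3 held 15.1% of all stacked Hec1A peaks and 5.96% of all spread ones. The Ishikawa ratios of density were 1.12 for stacked and 1.04 for spread peaks.

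Between clonal folds of 0.6 and 0.8 lay 40.6% of its peaks, against 59.9% on the other autosomes. Between 1.8 and 2.0, just under the limit, lay 192 peaks or 16.9%, against 5.92% elsewhere. The last 4 bins of chromosome 3, from 1.2 upwards, held 6.07%, 8.97%, 12.5% and 16.9% of its peaks, and elsewhere the same bins held 4.75% to 5.92%. Peaks with values above 2 are in neither list, so how many the filter removed on this chromosome was not analysed here.

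**Figure D3:**
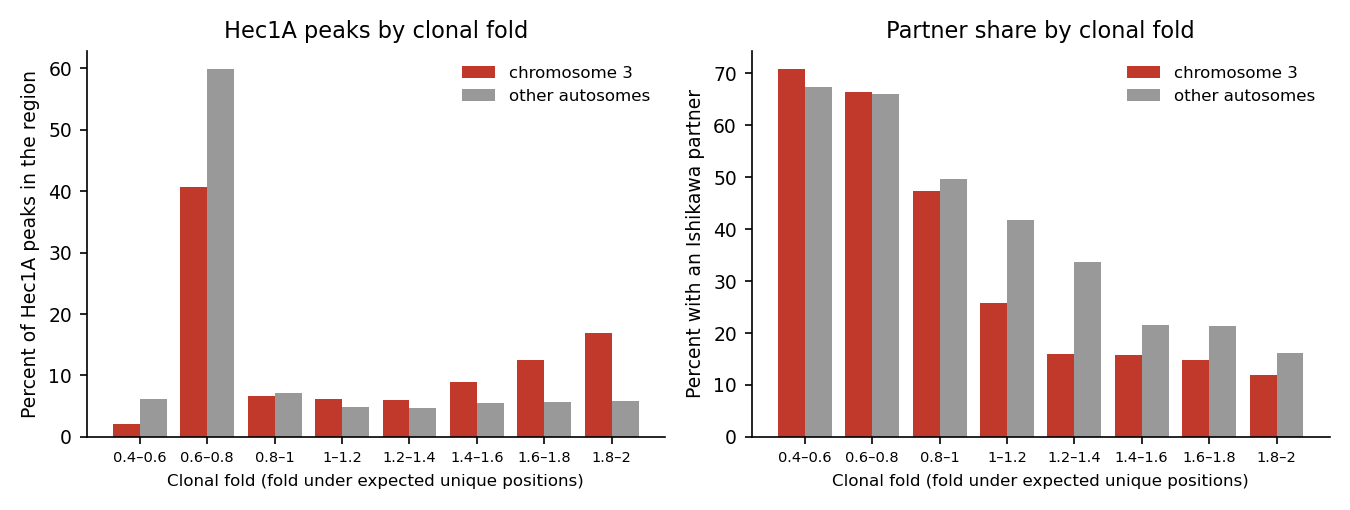
Hec1A peaks by clonal fold in bins of 0.2, as percent of the peaks of the region (left) and as percent with an Ishikawa partner (right), for chromosome 3 in red and the other autosomes in grey. On chromosome 3 the share of peaks is 40.6% in the bin of 0.6 to 0.8 and 16.9% in the bin of 1.8 to 2.0, and the partner share is 66.5% and 12.0% in these bins.

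Stacked Hec1A peaks had a median of 5.31 tags per 10000000 and a median score of 37, close to the listing threshold of 32. The score is the authors' tag number, with at most 7 tags counted per position in this list. Spread Hec1A peaks had medians of 6.15 tags per 10000000 and a score of 88.5. The median ratio of pool tags to score was 1.97 for stacked and 0.984 for spread peaks, so the classes lay further apart in score than in signal. Focus ratios of both classes were alike, with medians of 0.823 for stacked and 0.824 for spread peaks.

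The partner share of Hec1A peaks on chromosome 3 differed between the classes. Of 575 stacked peaks 89 had an Ishikawa partner (15.5%, 95% Wilson interval 12.8% to 18.7%), against 26.2% of such peaks on the other autosomes (24.7% to 27.8%). Of 562 spread peaks 360 had a partner (64.1%, 60.0% to 67.9%), against 64.6% elsewhere (63.6% to 65.6%). The intervals of chromosome 3 and the other autosomes overlapped for spread peaks and lay apart for stacked ones.

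The gap to the other autosomes also differed between score groups. Peaks of each list were divided into 4 groups of equal size by score, within chromosome 3 and within the other autosomes, with ties ordered by position. In the highest Hec1A score group 74.6% had a partner on chromosome 3 (95% Wilson interval 69.3% to 79.4%) and 75.0% elsewhere. In the second highest group the shares were 57.7% on chromosome 3 (51.9% to 63.4%) and 65.7% elsewhere. In the second lowest group the shares were 21.8% on chromosome 3 (17.4% to 27.0%) and 51.6% elsewhere. In the lowest group, with scores of 32 to 37, 11 of 285 peaks had a partner (3.86%, 2.17% to 6.78%), against 24.9% elsewhere. The lowest group elsewhere had scores of 32 to 40. Scores of the second lowest group were 37 to 54 here and 40 to 58 elsewhere, so the groups were not matched by score. Of these 285 peaks 91.6% were stacked, and of the lowest group elsewhere 57.8%. In Ishikawa the lowest group had 2.42% with a partner on chromosome 3 and 2.33% elsewhere, and the highest 26.3% on chromosome 3 and 30.0% elsewhere.

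**Figure D4:**
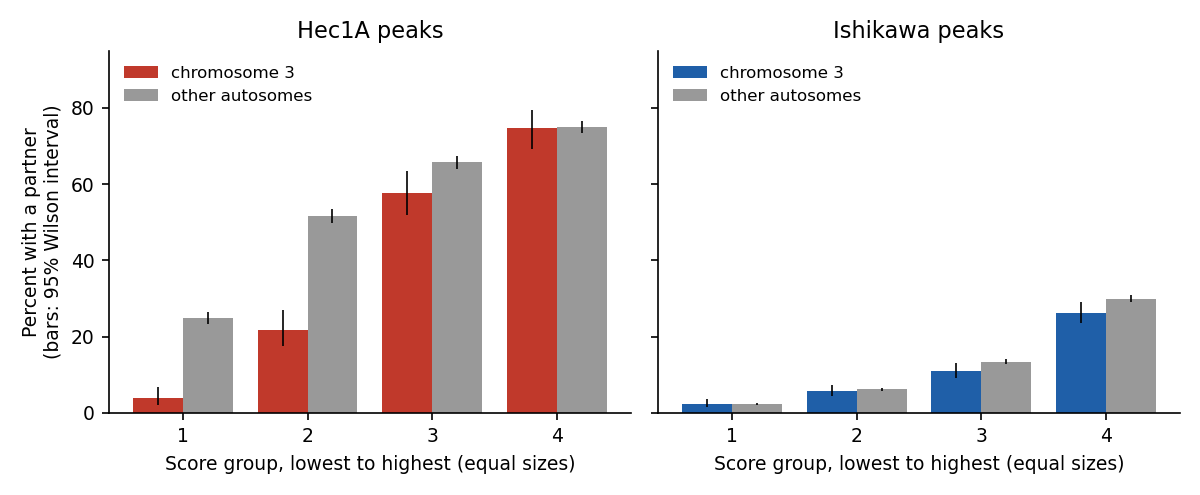
Percent of peaks with a partner in the other line in 4 score groups of equal size, with 95% Wilson intervals, for Hec1A on the left and Ishikawa on the right (coloured: chromosome 3; grey: other autosomes). For Hec1A the bars of chromosome 3 and the other autosomes are 3.86% and 24.9% in the lowest group and 74.6% and 75.0% in the highest.

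The tag level around the peaks of chromosome 3 was raised in Hec1A. The local background, computed as signal divided by the fold over the local region, had a Hec1A median of 1.03 tags per 10000000 here and 0.790 elsewhere, a ratio of 1.31. The median signal of all Hec1A peaks had a ratio of 1.14. For spread peaks the median background was 1.08 here and 0.765 elsewhere, a ratio of 1.41. Their median signal was 6.15 tags per 10000000 here and 4.68 elsewhere, a ratio of 1.31. Their median local fold was 5.45 here and 5.69 elsewhere. The median background of the 20 windows ranged from 0.903 to 1.16 tags per 10000000, each above the 0.790 of the other autosomes. Of 239 windows elsewhere, 34 (14.2%) reached 0.903. The high share of stacked peaks, the low partner share of stacked peaks and the raised background were thus found on the same chromosome, and their part in each other was not tested. Chromosomes 17 and 5 came next by Hec1A background, at medians of 1.01 and 0.946 tags per 10000000. They also combined high stacked shares (37.7% and 40.2%) with low partner shares over all peaks (48.9% and 45.5%). That combination was thus not limited to chromosome 3. Their spread peaks had partner shares of 67.6% and 64.6%, and the partner share of their stacked peaks alone was not computed.

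Ishikawa showed a different pattern, with a step near the end of the chromosome. Input tags in a peak interval averaged 7.51 ± 3.45 from 160 Mb (SD over 846 peaks) and 5.14 ± 2.54 below it (3123 peaks), a ratio of 1.46. The 4 windows of 10 Mb from 160 Mb averaged 6.71, 7.57, 8.17 and 7.77 input tags per peak. The 16 windows below averaged 4.04 to 5.52 input tags per peak, so the ranges did not overlap. Among 264 windows with at least 20 Ishikawa peaks on the other autosomes, 14 reached 6.71, and all 14 lay on chromosome 12. The boundary at 160 Mb was chosen with these values known, and input was read at called peaks alone.

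The Ishikawa ChIP tags were raised over the same stretch. The median local background in Ishikawa was 1.92 tags per 10000000 from 160 Mb and 1.32 below, a ratio of 1.46, and the median signal was 12.9 from 160 Mb and 9.37 below, a ratio of 1.38. Among spread Ishikawa peaks the mean input was 8.05 tags from 160 Mb and 5.36 below, and among stacked ones 5.98 from 160 Mb and 4.51 below. Peaks with a Hec1A partner averaged 9.23 input tags from 160 Mb and 5.94 below, and those without one 7.28 from 160 Mb and 5.03 below. The input was thus higher from 160 Mb in each of these classes. Over all Ishikawa peaks the folds were closer to each other. The median fold over the local region was 6.58 from 160 Mb and 6.89 below, and the median fold over input was 7.54 from 160 Mb and 7.83 below. For peaks with a Hec1A partner both were higher from 160 Mb. Their local fold was 14.8 from 160 Mb and 12.7 below, and their fold over input 14.9 from 160 Mb and 13.1 below. For peaks without a partner both were lower from 160 Mb. The share of peaks with at least 10 input tags was 26.0% from 160 Mb (220 of 846) and 5.64% below (176 of 3123). Across the 20 windows, mean input and median background in Ishikawa had a Pearson r of 0.97 and a Spearman rho of 0.74. Below 160 Mb alone, r was 0.89 and rho 0.51 over 16 windows.

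In windows of 2 Mb the step lay nearer to 166 Mb than to 160 Mb, a position seen in the data. The 3 windows from 160 to 166 Mb had 4.08 to 5.02 input tags per peak, and the 2 Mb windows from 140 to 160 Mb had 4.25 to 5.77. The windows at 162 to 164 Mb and 164 to 166 Mb, with 4.125 and 4.08, lay below that range. Each of the 16 windows from 166 Mb to the end had 6.35 to 9.51. In single megabases the mean was 4.56 at 165 to 166 Mb, 6.19 at 166 to 167 Mb, 7.38 at 167 to 168 Mb and 9.75 at 168 to 169 Mb. From 166 Mb the 746 peaks averaged 7.91 ± 3.46 input tags (SD over peaks), against 5.12 ± 2.53 over the 3223 peaks below, a ratio of 1.55.

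The highest input, background and signal of the 2 Mb windows were at 168 to 170 Mb, while the first window behind the step, 166 to 168 Mb, had 6.76 input tags per peak. At 168 to 170 Mb, 78 Ishikawa peaks had 9.51 input tags on average, a median background of 2.71 tags per 10000000 and a median signal of 21.0. The Ishikawa peak with the most input tags on the chromosome, 27, lay at chr3:180630037-180630389. It had 5.94 tags per 10000000 in Hec1A and 55.6 in Ishikawa, where its fold over input was 7.97. At the low end, 38 Ishikawa peaks shared 0.5, the smallest input value of the list.

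The Hec1A background was close on both sides of the boundary. The Hec1A median background was 1.06 tags per 10000000 from 160 Mb and 1.03 below, a ratio of 1.03, and with a boundary at 166 Mb the ratio was 1.04. Its median signal was 5.98 from 160 Mb and 5.52 below, a ratio of 1.08. For spread Hec1A peaks the background was 1.15 from 160 Mb and 1.06 below, a ratio of 1.08, and the signal 7.13 from 160 Mb and 5.94 below, a ratio of 1.20. The 4 windows from 160 Mb had median backgrounds of 0.967 to 1.16 tags per 10000000, and the 16 windows below had 0.903 to 1.14, so the ranges overlapped. Hec1A input was not analysed here, so the comparison with the Ishikawa input rests on ChIP background alone.

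**Figure D5:**
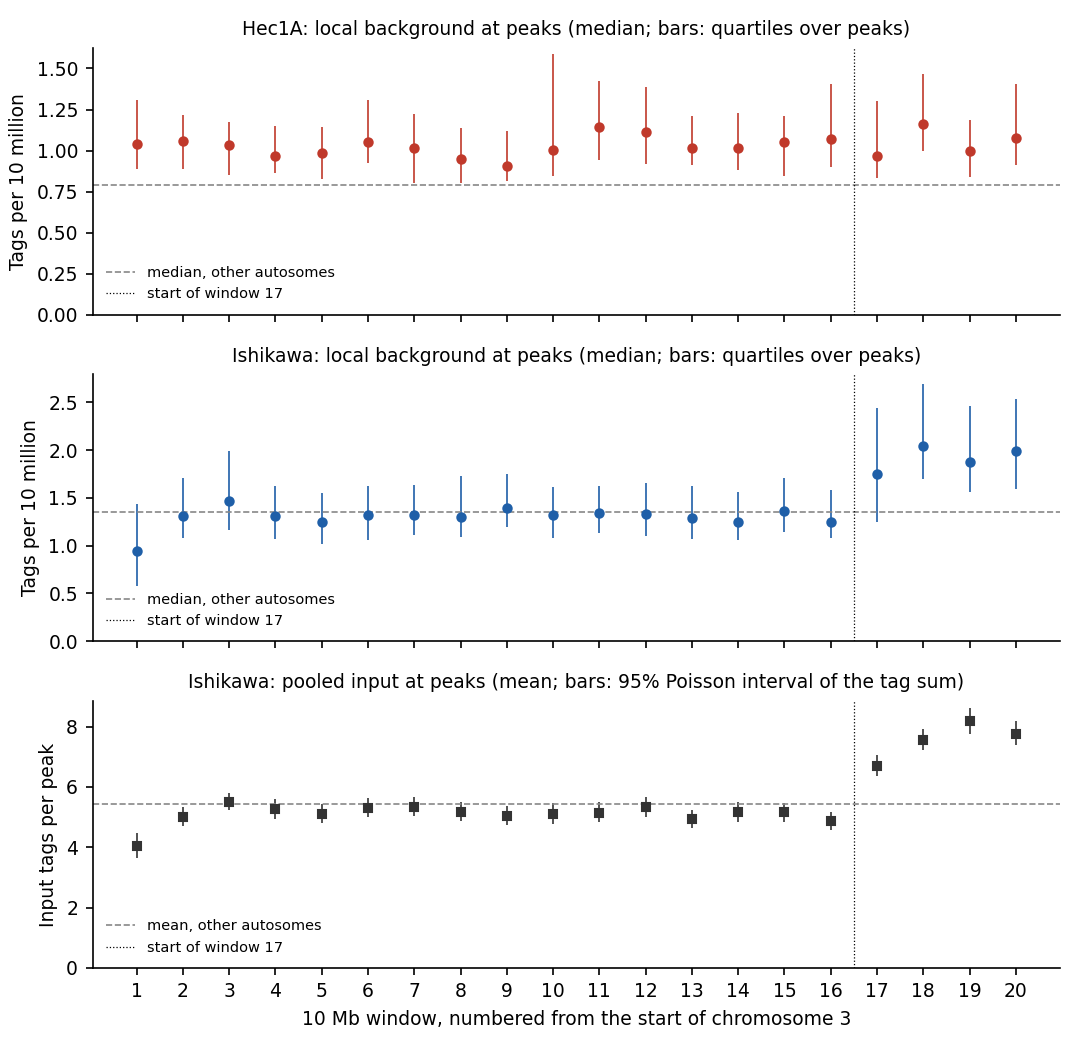
Local background of Hec1A peaks (top) and Ishikawa peaks (middle) as window medians with quartiles, and pooled Ishikawa input tags per peak as means with 95% Poisson intervals of the tag sum (bottom), along the 20 windows of chromosome 3, with the level of the other autosomes dashed. Ishikawa background and input stand higher in windows 17 to 20 (1.76 to 2.04 tags per 10000000 and 6.71 to 8.17 input tags), and Hec1A background lies above the other autosomes in every window.

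Over all peaks of each line, partner shares and shares of stacked peaks from 160 Mb were within 2 percentage points of those below. Of 248 Hec1A peaks there, 40.3% had a partner, against 39.3% of the 889 below. Of 846 Ishikawa peaks there, 11.8% had a partner, against 11.2% of the 3123 below. By class, the partner share of spread Hec1A peaks was 68.9% from 160 Mb and 62.8% below. For stacked Hec1A peaks it was 14.0% from 160 Mb and 15.9% below. The Wilson intervals overlapped in both classes. Stacked peaks made up 52.0% of Hec1A peaks from 160 Mb and 50.2% below, and 26.2% of Ishikawa peaks from 160 Mb and 26.4% below. By window the Hec1A stacked share varied more from 160 Mb, at 38.7% to 69.4% over 4 windows, than below, at 43.1% to 55.2% over 16. The pairs differed in signal. The 100 pairs from 160 Mb had a median ratio of Hec1A to Ishikawa signal of 0.269 (interval of the median 0.198 to 0.321), and the 349 pairs below had 0.377 (0.353 to 0.417). The median signals behind these ratios were 7.94 tags per 10000000 in Hec1A and 33.5 in Ishikawa from 160 Mb, and 7.13 in Hec1A and 18.6 in Ishikawa below. By local fold the ratios were 0.486 (0.368 to 0.539) from 160 Mb and 0.522 (0.452 to 0.562) below, with intervals that overlapped.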

How the data were processed

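The submitters' processing notes name the tools HOMER 4.7.2, SAMtools 1.3.1 and Bowtie 1.1.2 and the build hg19. The authors ran HOMER findPeaks in factor mode on pooled ChIP tags, per the file headers, with thresholds of 88 tags in Ishikawa and 32 tags in Hec1A, a fold of 4 over the surrounding 10000 bp and a clonality limit of 2; Ishikawa peaks also had to exceed input by a fold of 4. Both library kits occur in every pool. The deposited signal is tags per 10000000 of the pool; a median Hec1A peak on chromosome 3 rests on about 80 tags. The focus ratio was deposited as a fraction, and the score of findPeaks, as deposited, is a number of tags capped per position. The fold columns were deposited as ratios. Scores and folds per peak are the authors' own values. Deposited p-values were not used. The deposited Control Tags, with 0.5 as their smallest value, are taken as unscaled input tags. Values of the lines come from separate pools and were set side by side without a test.

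Overlap, 10 Mb windows, local background and medians were computed with Python 3.11.15, pandas 2.3.3 and scipy 1.17.1. Of these, the overlap procedure was tested on simulated data, as was a ratio of mean tags across a boundary at 160 Mb. Windows take a peak by its centre. Intervals are 95% Wilson intervals for shares, order-statistic intervals for medians and exact Poisson intervals for tag sums, and cover counting error only. Named peaks are the 6 best-ranked pairs, the 6 highest-scoring peaks of each list without a partner, the highest-scoring peak from and below 160 Mb, the 3 densest windows of 1 Mb per list, and the Ishikawa peaks with the most and fewest input tags. The chromosome, boundary and measures were chosen with earlier results of these data known. Alternatives were stricter folds, clonality limits, overlap rules and boundaries. Gene position, gene lists and sequences were planned only for an hg19 annotation and were left out.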

Additional observations from a re-analysis of the deposited data

How the results depend on the processing

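Of 41 alternatives over 15 results, 19 stayed within the interval of the reported value (or within 1.5 times for a count), 22 moved beyond it and 0 turned round. A turn was defined only for the ratios across the boundary and for rho, so the other alternatives could not show one. The 19 include distance rules of 100 bp and 1 kb for the named peaks without a partner. These peaks lay at least 1.215 kb from the other list, so those rules could not change them. Outside this count, the ratio of Hec1A peak density to the other autosomes was 1.28 for all peaks and 0.861 for spread ones. At a local fold of at least 8, chromosome 3 held 209 Hec1A peaks (6.07% of the list) and 1538 Ishikawa peaks (6.99%), and the median signals were 14.1 in Hec1A and 20 in Ishikawa tags per 10000000. When partners also had to pass this threshold, the partner shares were 59.3% in Hec1A and 8.06% in Ishikawa. At a clonal fold of 1 or less, 562 Hec1A peaks were left (5.96% of the list), and the median signals were 6.15 in Hec1A and 11.5 in Ishikawa. With this limit on both lists, the Hec1A partner share was 60.3%. With the input threshold raised to a fold of 8, chromosome 3 kept 1917 Ishikawa peaks, and the input ratio from 160 Mb over below was 1.56. With centres within 100 bp the Hec1A partner share was 36.5%. Partner shares elsewhere were not computed under these rules, so they do not show whether the gap to the other autosomes stays. With the clonal limit on Hec1A alone, the share was 64.1% here and 64.6% elsewhere. A clonal split at 1.5 left 34.2% of Hec1A peaks above it here and 14.8% elsewhere. The input ratio was 1.4 by medians, 1.35 from 150 Mb and 1.55 from 166 Mb, and the Ishikawa background ratio 1.36 from 150 Mb and 1.55 from 166 Mb. The boundary at 166 Mb was added after the data were seen. Smaller counts follow from the stricter thresholds; for the other values the cause was not tested. Depth limits the precision of single Hec1A peaks, at a median of about 80 tags. No library could be left out, since each list comes from 1 pool. No paired analysis was possible because pooling removed the replicate numbers. Alternatives for gene position and gene lists were not run.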

Other observations

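Ishikawa peaks on chromosome 3 formed 11 runs of at least 5 peaks with neighbours no more than 10 kb apart, which held 63 of 3969 peaks (1.59%), while Hec1A formed 2 such runs with 10 peaks (0.880%). Both limits of a run were set with the data in view. The longest Ishikawa run, with 8 peaks at chr3:23109914-23157085, had signals of 17.8 to 141.6 tags per 10000000. A single one of its 8 peaks had a Hec1A partner, and that partner is the strongest Hec1A peak of the chromosome. The first of the Hec1A runs, with 5 peaks at chr3:98681151-98703915, had signals of 7.83 to 58.4 tags per 10000000, and 1 of its peaks had an Ishikawa partner.

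The first 10 Mb of the chromosome differed from the rest in Ishikawa. This window held the fewest Ishikawa peaks (89), the lowest mean input (4.04 tags per peak), the lowest median signal (6.75 tags per 10000000) and the highest share of peaks with a Hec1A partner (19.1%) of the 20 windows. In Hec1A it held 43 peaks with a median signal of 5.66 tags per 10000000.

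The 688 Hec1A peaks without a partner lay a median of 17.5 kb from the nearest Ishikawa peak, and 28 of them (4.07%) had one within 1 kb, against a median of 15.1 kb and 5.51% within 1 kb on the other autosomes. For those with a clonal fold above 1 this median was 16.9 kb, and for the others 19.9 kb. The 3520 Ishikawa peaks without a partner lay a median of 62.1 kb from the nearest Hec1A peak, and 29 (0.824%) had one within 1 kb, against 77.5 kb and 0.768% on the other autosomes.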
